A study of Mus musculus with 12 samples.

Results

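Interferon response genes are the genes that cells switch on when interferons bind their receptors. The set described here holds 47 such genes of the mouse, chosen by name from the 51912 genes of the deposited table: 3 for secreted factors, 4 for sensors of foreign RNA or DNA, 6 for transcription factors or nuclear regulators, 19 for antiviral effectors, 8 for ISG15, ubiquitin or ADP-ribose enzymes, and 7 for antigen presentation. All 47 were found in the table. They were measured in primary neurons from the cortex of C57BL/6J embryos (E17.5), dissociated, plated with serum and moved to a serum-free medium with B27. A few hours after plating the dishes received either the solvent DMSO or erinacine S, a terpenoid of the mushroom Hericium erinaceus, at 1 µg/mL. The 4 groups were DMSO for 16 h, erinacine S for 16 h, DMSO for 48 h and erinacine S for 48 h, with 3 libraries each. No group carried an engineered allele. The labels call the 3 libraries independent repeats but do not say whether these were separate litters, so the p-values measure the spread between these libraries only. Time since addition and age of the culture run together in this design and cannot be told apart.

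Type I interferons act through their receptor and the kinases Jak1 and Tyk2 on Stat2, which with Irf9 is part of a complex that binds the interferon-stimulated response element (ISRE) in the promoters of these genes. Interferon gamma acts on a second element (GAS). Neurons are known to answer interferon, and in brain tissue microglia are a further well-known source of these transcripts.

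Values are TPM, a gene's share of all transcripts after scaling by gene length, so that levels can be compared between genes. The sum of TPM is the same in every library by construction, and the read depth behind a value is unknown. None of 8 housekeeping genes was listed at 0 in any library. The labelled cell type was checked with 12 neuron markers, whose summed level was 4467 to 5339 TPM in the 16 h libraries and 6490 to 7156 TPM in those of 48 h. Markers of other cells were present as well: 16 microglia markers summed to 47.6 to 93.3 TPM in DMSO at 16 h, 48.9 to 90.7 in erinacine S at 16 h, 48.0 to 60.1 in DMSO at 48 h and 18.9 to 38.5 in erinacine S at 48 h. Erinacine S 48 h replicate 1 stood apart: its 8 markers of dividing cells summed to 137 TPM, against 244 to 299 in the other 11 libraries, and its 8 astrocyte markers to 49.3 TPM, against 109 to 132 in the other libraries of 48 h.

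The promoters of 7 members are shown for the ISRE, the element this pathway is known to act through. Isg15, Bst2, Gbp3 and Ifit3 are among the members with the most matches to the ISRE core, and H2-K1 and Cmpk2 have no exact match. Rsad2, the neighbour of Cmpk2, was added after its values were seen. Only exact matches were counted, so a promoter without one may still hold a variant of the element. The sequences are RefSeq's for GRCm38.p6, up to 250 bases before the RefSeq start without those inside the gene model, 5′ to 3′ on the gene's strand, with matches to the ISRE core (GAAA, any 2 bases, GAAA, or on the other strand TTTC, any 2 bases, TTTC) in capitals.
Isg15, chr4:156200819-156201068, minus strand: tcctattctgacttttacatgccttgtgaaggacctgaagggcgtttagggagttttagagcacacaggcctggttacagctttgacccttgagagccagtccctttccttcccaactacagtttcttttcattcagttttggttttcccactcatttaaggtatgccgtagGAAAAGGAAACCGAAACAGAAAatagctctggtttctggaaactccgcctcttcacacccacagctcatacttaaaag
Bst2, chr8:71537473-71537722, minus strand: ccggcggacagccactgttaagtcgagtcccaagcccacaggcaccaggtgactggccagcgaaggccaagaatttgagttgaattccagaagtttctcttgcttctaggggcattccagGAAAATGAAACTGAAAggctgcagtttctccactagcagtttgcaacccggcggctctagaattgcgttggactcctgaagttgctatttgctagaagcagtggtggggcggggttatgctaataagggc
Gbp3, chr3:142559794-142560025, plus strand: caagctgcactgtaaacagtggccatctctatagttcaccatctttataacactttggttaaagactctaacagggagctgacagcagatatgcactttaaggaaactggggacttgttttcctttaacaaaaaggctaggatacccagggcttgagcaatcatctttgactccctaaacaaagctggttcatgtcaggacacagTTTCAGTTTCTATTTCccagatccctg
Ifit3, chr19:34583279-34583528, plus strand: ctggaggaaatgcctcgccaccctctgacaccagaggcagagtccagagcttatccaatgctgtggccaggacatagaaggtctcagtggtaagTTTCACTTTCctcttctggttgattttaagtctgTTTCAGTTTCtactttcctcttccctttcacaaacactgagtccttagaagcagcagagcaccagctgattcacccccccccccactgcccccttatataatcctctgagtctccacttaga
Rsad2, chr12:26456453-26456702, minus strand: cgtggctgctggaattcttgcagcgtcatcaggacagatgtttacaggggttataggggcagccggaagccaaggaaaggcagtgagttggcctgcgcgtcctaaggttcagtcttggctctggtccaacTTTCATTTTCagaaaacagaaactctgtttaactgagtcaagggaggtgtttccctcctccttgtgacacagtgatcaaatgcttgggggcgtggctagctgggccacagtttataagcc
Cmpk2, chr12:26468965-26469203, plus strand: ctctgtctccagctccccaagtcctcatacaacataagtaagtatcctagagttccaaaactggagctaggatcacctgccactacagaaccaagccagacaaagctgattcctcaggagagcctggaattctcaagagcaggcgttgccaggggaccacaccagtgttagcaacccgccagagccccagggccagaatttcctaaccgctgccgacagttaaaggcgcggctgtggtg
H2-K1, chr17:34000348-34000597, minus strand: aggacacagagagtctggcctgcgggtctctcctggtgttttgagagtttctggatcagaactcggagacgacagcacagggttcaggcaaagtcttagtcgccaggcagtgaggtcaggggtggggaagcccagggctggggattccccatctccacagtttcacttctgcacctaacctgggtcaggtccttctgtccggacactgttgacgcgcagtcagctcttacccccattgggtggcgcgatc
Isg15 holds 3 overlapping matches, which begin 78, 72 and 66 bases before the start, and Ifit3 holds 2 separate ones, at 156 and 122 bases. Of the 36 members with a promoter in the RefSeq table, 12 (33.3%) hold at least 1 ISRE match in these 250 bases, against 3.46% of all 27025 genes with a promoter there. They are B2m, Bst2, Cxcl10, Gbp3, Ifit1, Ifit3, Ifit3b, Isg15, Oas1a, Rsad2, Stat2 and Trim30a. Counted against the decline described below, 9 of the 29 members with a promoter here that fell in DMSO hold a match (31.0%), as does 1 of the 4 that were tested and did not pass, Stat2. The GAS core TTCNNNGAA, searched separately, occurs in 5 of the 36 (13.9%) and in 8.13% of all. Ccl5, Dhx58, Ifi27, Mx1, Mx2, Parp14, Parp9, Rtp4, Tap2, Usp18 and Zbp1 were not matched to the table.

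Between 16 h and 48 h nearly the whole set went down, with or without erinacine S. In DMSO, 42 of the 47 members were higher in every 16 h library than in every 48 h library, a pattern seen in 17.4% of the 32326 genes above 0 in any library. In erinacine S this held for 44 of 47, against 16.3% of those genes, and 41 members showed it in both treatments. No member was higher in every 48 h library than in every 16 h library, in either treatment. The share of all genes was not counted for both treatments together or for this opposite pattern. The number of members with a mean of at least 1 TPM was 45 at 16 h in either treatment, 16 in DMSO at 48 h and 14 in erinacine S at 48 h. The median member kept 18.1% of its 16 h level in DMSO and 10.2% in erinacine S, beside 97.6% and 98.2% for all 15623 genes with a mean of at least 1 TPM over the 12 libraries.

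**Figure D1:**
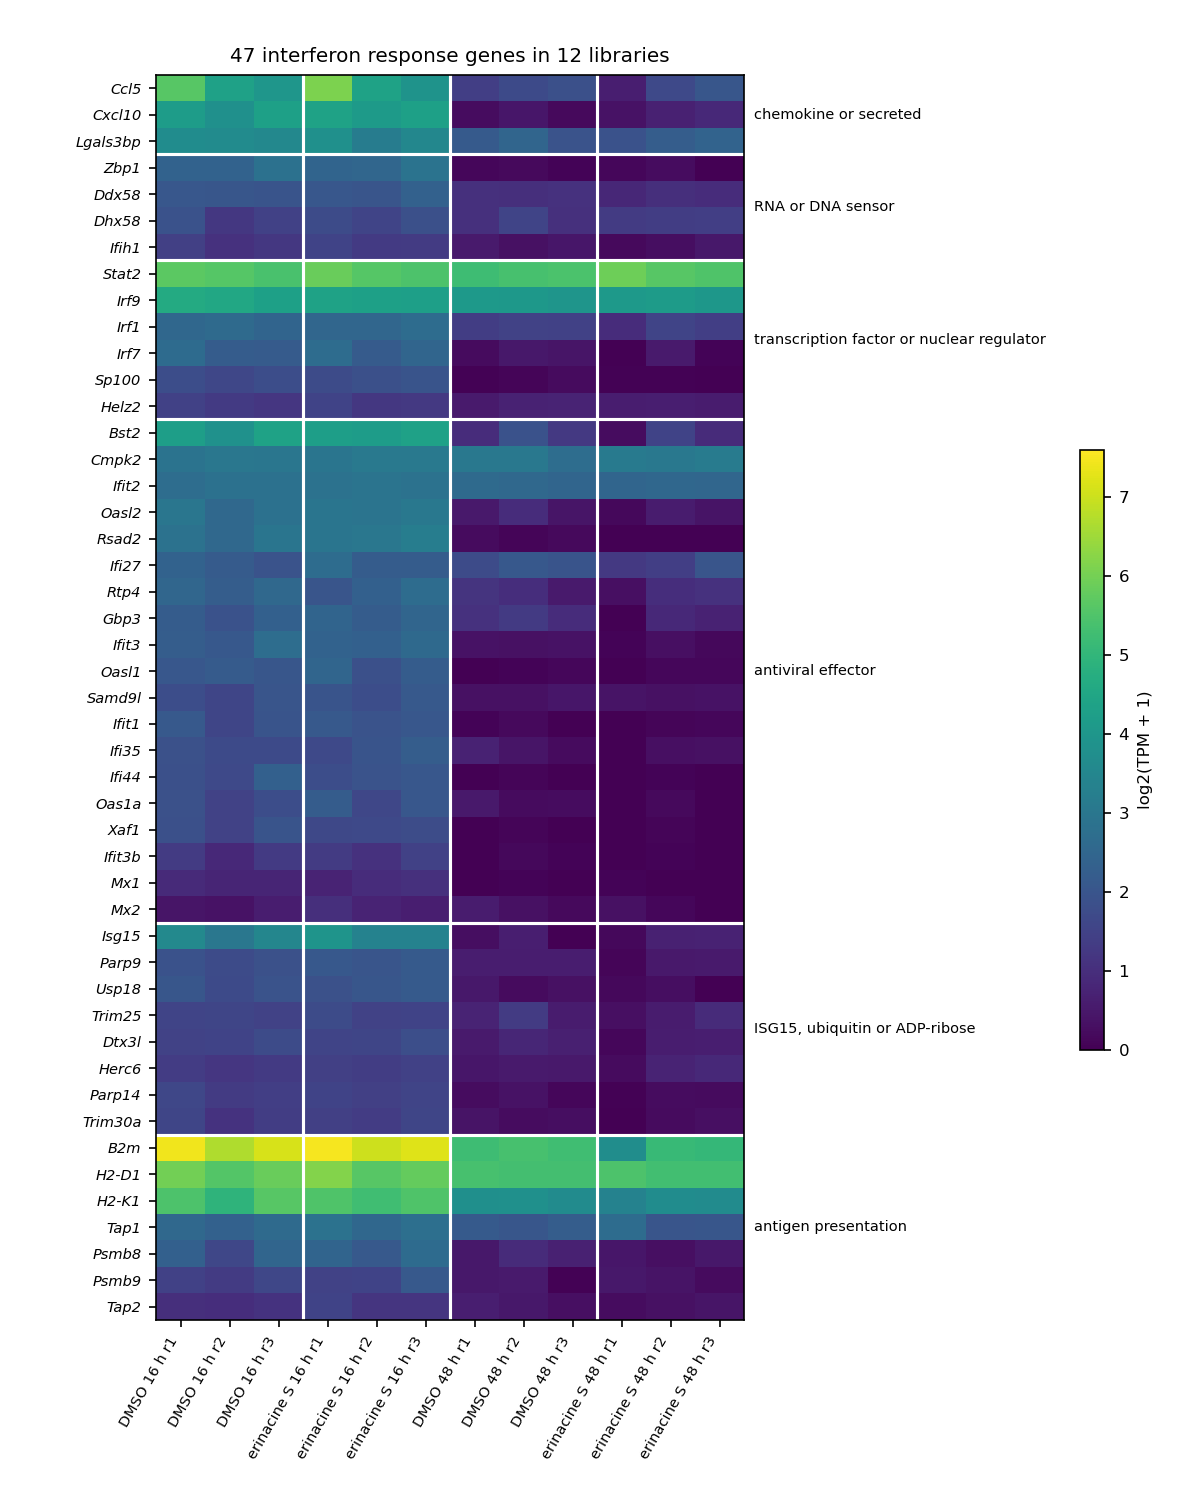
Level of each of the 47 genes (rows, grouped by role and ordered by mean level) in each of the 12 libraries (columns), as the log2 of TPM plus 1; r1 to r3 are the replicate numbers. The left 6 columns, of 16 h, are brighter than the right 6, of 48 h, for most rows, while Stat2, Irf9, Cmpk2 and Ifit2 keep much the same shade across all columns.

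The test, limma on log2(TPM + 1) with p-values adjusted over all genes by the Benjamini-Hochberg method and a threshold of 0.05, was fitted with and without a filter on low values. Without the filter all 47 members entered: 38 fell in DMSO and 42 in erinacine S, against 8.38% and 7.88% of the 32326 genes, and none rose, against 6.87% and 6.19%. With the filter, a mean of at least 1 TPM, 40 members entered. Of these 34 fell in DMSO, where 16.6% of the 15623 genes fell, and 35 in erinacine S, where 15.5% did. A member that passes only through its 16 h level has to differ between the times, so these last counts are given as a description. The 7 below the filter are Ifit3b, Tap2, Trim30a, Mx1, Mx2, Ifih1 and Parp14. In the fit without it, 6 of them fell in DMSO, from Parp14 (log2 difference -1.21 ± 0.10, SE) to Tap2 (-0.57 ± 0.12), and Mx2 stood at -0.09 ± 0.13 (adjusted p = 0.720). In erinacine S all 7 fell, from Parp14 (-1.33 ± 0.10) to Mx2 (-0.66 ± 0.13). Mx2, annotated as a polymorphic pseudogene, had the lowest mean of all members over the 12 libraries, at 0.294 to 0.510 TPM in DMSO and 0.566 to 1.02 TPM in erinacine S at 16 h. All differences below are 48 h minus 16 h on the log2(TPM + 1) scale ± SE (n = 3 libraries a group), from the filtered fit unless stated, and this scale understates the change of low genes. Fewer expressing cells and less RNA per cell cannot be told apart in these bulk libraries.

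**Figure D2:**
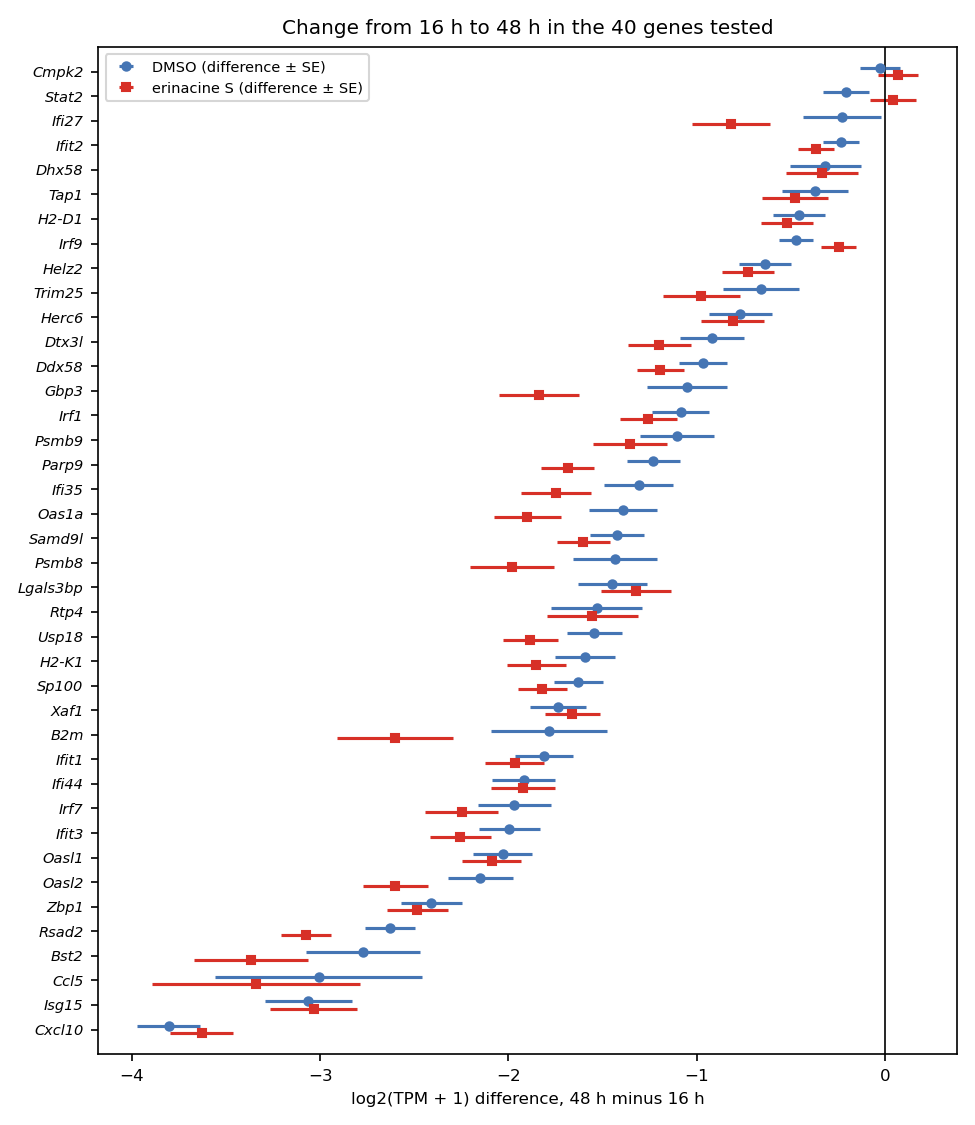
Difference between 48 h and 16 h in log2(TPM + 1), with its SE, for the 40 members that passed the filter (rows, ordered by the difference in DMSO); circles are DMSO and squares are erinacine S. Cxcl10 lies farthest to the left in DMSO at -3.80, and Cmpk2 lies beside 0 in both treatments.

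Both chemokines were among the members that moved farthest. Cxcl10, a chemokine that attracts T cells, stood at 17.2, 13.1 and 19.0 TPM in DMSO replicates 1 to 3 at 16 h and at 0.188, 0.389 and 0.140 TPM at 48 h. In erinacine S it stood at 20.0, 16.7 and 18.8 TPM at 16 h and at 0.292, 0.623 and 0.851 TPM at 48 h. The groups of the 2 times lie far apart, with a difference of -3.80 ± 0.17 in DMSO (adjusted p = 2.54e-07) and -3.63 ± 0.17 in erinacine S (adjusted p = 2.94e-07). Ccl5, the other one, was uneven at 16 h, at 48.4, 19.4 and 15.0 TPM in DMSO and 67.7, 19.8 and 14.1 TPM in erinacine S, with replicate 1 highest in both. At 48 h it stood at 1.63, 2.23 and 2.63 TPM in DMSO and at 0.557, 2.22 and 3.13 TPM in erinacine S, below all libraries of 16 h. Ccl5 fell by 3.01 ± 0.55 in DMSO (adjusted p = 0.00175), or by 2.52 without DMSO 16 h replicate 1 (adjusted p = 0.00776). Replicate 1 also had the highest microglia marker sum of its group at 16 h, 93.3 and 90.7 TPM against 47.6 to 53.0 in the other 4 libraries, and the part of this in the Ccl5 values was not tested. Lgals3bp, a secreted galectin-binding glycoprotein, fell less, from 11.4 ± 0.574 to 3.59 ± 0.865 TPM in DMSO (SD).

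Of the sensors, Zbp1, which binds nucleic acid in the Z form, changed most. It stood at 4.22, 4.29 and 6.09 TPM in DMSO and 4.47, 4.74 and 6.44 TPM in erinacine S at 16 h. At 48 h it stood at 0.0959, 0.132 and 0.0544 TPM in DMSO and at 0.103, 0.186 and 0.0176 TPM in erinacine S. Every library of 48 h lay far below the lowest library of 16 h, and the differences were -2.41 ± 0.16 and -2.48 ± 0.16 (adjusted p = 4.89e-06 and 4.28e-06). Ddx58, which encodes the RNA helicase RIG-I, fell by 0.97 ± 0.13 in DMSO and by 1.19 ± 0.13 in erinacine S. Ifih1, which encodes the related sensor MDA5, fell in the fit without a filter by 0.80 ± 0.12 and 1.06 ± 0.12. Dhx58, the third helicase of this family (LGP2), stood at -0.32 ± 0.19 and -0.33 ± 0.19 and did not pass (adjusted p = 0.220 and 0.201).

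Of the 6 transcription factors and nuclear regulators, 5 fell in DMSO, all but Stat2, and 4 in erinacine S, all but Stat2 and Irf9, beside 16.6% and 15.5% of all genes tested. Irf7, the interferon-induced amplifier of type I interferon genes, stood at 5.29, 3.68 and 3.57 TPM in DMSO at 16 h and at 0.173, 0.418 and 0.342 TPM at 48 h. It fell by 1.97 ± 0.19 in DMSO and by 2.25 ± 0.19 in erinacine S, and was listed at 0 in 1 erinacine S library of 48 h. Sp100, a protein of nuclear bodies, stood at 2.51, 2.08 and 2.48 TPM in DMSO and 2.30, 2.60 and 2.96 TPM in erinacine S at 16 h. At 48 h it stood at 0.0300, 0.0664 and 0.157 TPM in DMSO and at 0.0301, 0.0371 and 0 TPM in erinacine S. That is a fall of 1.63 ± 0.13 and 1.82 ± 0.13 (adjusted p = 1.29e-05 and 6.86e-06). Irf1 fell by 1.09 ± 0.15 and 1.26 ± 0.15, and Helz2, a nuclear coactivator, by 0.64 ± 0.14 and 0.73 ± 0.14, in DMSO and erinacine S.

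Stat2 and Irf9, of the complex that binds the ISRE, were the 2 most abundant members of this role and moved least within it. Irf9 overlaps the gene Rnf31 on the same strand, so the Irf9 level could include reads of Rnf31. Stat2 stood at 50.2, 46.97 and 41.8 TPM in DMSO at 16 h and at 36.5, 40.7 and 42.9 TPM at 48 h, so that the groups overlap, and the difference was -0.21 ± 0.12 (adjusted p = 0.216). In erinacine S it stood at 57.0, 47.2 and 43.6 TPM and then at 59.3, 48.7 and 44.5 TPM (0.04 ± 0.12, adjusted p = 0.817). Irf9 stood at 24.1, 22.5 and 19.1 TPM in DMSO at 16 h and at 15.9, 15.6 and 14.7 TPM at 48 h, a fall of 0.47 ± 0.09 (adjusted p = 0.00247). In erinacine S it stood at 20.0, 18.9 and 18.5 TPM and then at 15.9, 16.9 and 15.1 TPM (-0.25 ± 0.09, adjusted p = 0.0593), with no overlap between the times although the test was missed.

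Of the 19 antiviral effectors 16 passed the filter, and of these 13 fell in DMSO and 15 in erinacine S, beside 16.6% and 15.5% of all genes tested; as above, the filter itself favours members that were high at 16 h. Rsad2, which encodes viperin, an enzyme that makes a chain-terminating nucleotide, stood at 6.30, 4.96 and 6.70 TPM in DMSO at 16 h and at 0.157, 0.0696 and 0.149 TPM at 48 h. In erinacine S it stood at 6.81, 7.13 and 8.39 TPM at 16 h and was listed at 0 in all 3 libraries of 48 h. The differences were -2.63 ± 0.13 and -3.07 ± 0.13 (adjusted p = 9.23e-07 and 2.23e-07). Oasl1, of the oligoadenylate synthetase-like family, stood at 3.21, 3.53 and 3.14 TPM in DMSO at 16 h and at 0, 0.0560 and 0.0981 TPM at 48 h. Its neighbour Oasl2 stood at 6.81, 6.52 and 7.30 TPM in erinacine S at 16 h and at 0.127, 0.483 and 0.308 TPM at 48 h. The 48 h libraries of both genes lie below all their 16 h libraries, at -2.03 ± 0.16 for Oasl1 in DMSO and -2.60 ± 0.17 for Oasl2 in erinacine S (adjusted p = 1.18e-05 and 4.28e-06). Bst2, which encodes tetherin, a membrane protein that holds budding virus, was the most abundant effector at 16 h, at 18.1, 13.3 and 19.8 TPM in DMSO. At 48 h in DMSO it stood at 0.943, 2.79 and 1.41 TPM, a fall of 2.77 ± 0.30 (adjusted p = 8.47e-05). In erinacine S it stood at 18.3, 17.3 and 19.5 TPM at 16 h and at 0.183, 1.90 and 0.932 TPM at 48 h. Ifi44, Xaf1, Ifit1, Ifit3, Samd9l, Rtp4, Oas1a, Ifi35 and Gbp3 fell in both treatments too, by 1.05 to 2.00 in DMSO and by 1.55 to 2.26 in erinacine S.

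Adjacent members behaved differently in 2 clusters. Rsad2 (chr12:26442746-26456452, minus strand) and Cmpk2 (chr12:26469204-26479837, plus strand), which encodes a mitochondrial nucleotide kinase, lie head to head 12752 bp apart. Cmpk2 stood at 6.51, 7.10 and 6.88 TPM in DMSO at 16 h and at 7.32, 7.18 and 5.63 TPM at 48 h, and in erinacine S at 6.81, 7.33 and 7.44 TPM and then at 7.56, 7.19 and 8.00 TPM. So the 2 genes had similar levels at 16 h, and at 48 h Cmpk2 kept 98.2% of its level in DMSO (-0.03 ± 0.11, adjusted p = 0.858) while Rsad2 kept 2.09%. The Cmpk2 difference turns positive, to 0.076, without DMSO 48 h replicate 3. In the promoters printed above, Rsad2 holds 1 ISRE match, 120 bases before its start, and the 239 bases of Cmpk2 hold no exact match. Of the 29 members with a promoter that fell in DMSO, 9 hold a match in the 250 bases searched. The part of the ISRE in these changes was not tested. In the Ifit cluster, whose proteins bind viral RNA, Ifit2 (chr19:34550694-34576419) lies 7112 bp from Ifit3 (chr19:34583531-34588731). Ifit3 stood at 4.29, 4.07 and 5.05 TPM in erinacine S at 16 h and at 0.0556, 0.249 and 0.128 TPM at 48 h (-2.26 ± 0.16, adjusted p = 6.86e-06). Ifit2 stood at 6.22, 6.60 and 6.21 TPM and then at 4.55, 4.81 and 4.71 TPM in the same libraries. That is a fall of 0.37 ± 0.09 (adjusted p = 0.0127), which is lost without erinacine S 16 h replicate 2 (adjusted p = 0.0538), and in DMSO Ifit2 stood at -0.23 ± 0.09 (adjusted p = 0.0787). Ifit3 and Ifit3b are near-identical copies between which reads could be split, so their separate levels are uncertain. Ifi27, a mitochondrial and nuclear membrane protein that lies in neither cluster, stood at 5.43, 3.66 and 3.67 TPM in erinacine S at 16 h and at 1.40, 1.65 and 3.00 TPM at 48 h, without overlap (-0.82 ± 0.21, adjusted p = 0.0112). In DMSO it stood at 4.20, 3.51 and 2.87 TPM and then at 2.35, 3.25 and 2.94 TPM, with overlap (-0.23 ± 0.21, adjusted p = 0.415), and the difference is -0.13 without DMSO 16 h replicate 1. The difference between these 2 changes, -0.59 ± 0.29, did not pass (adjusted p = 1.00).

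**Figure D3:**
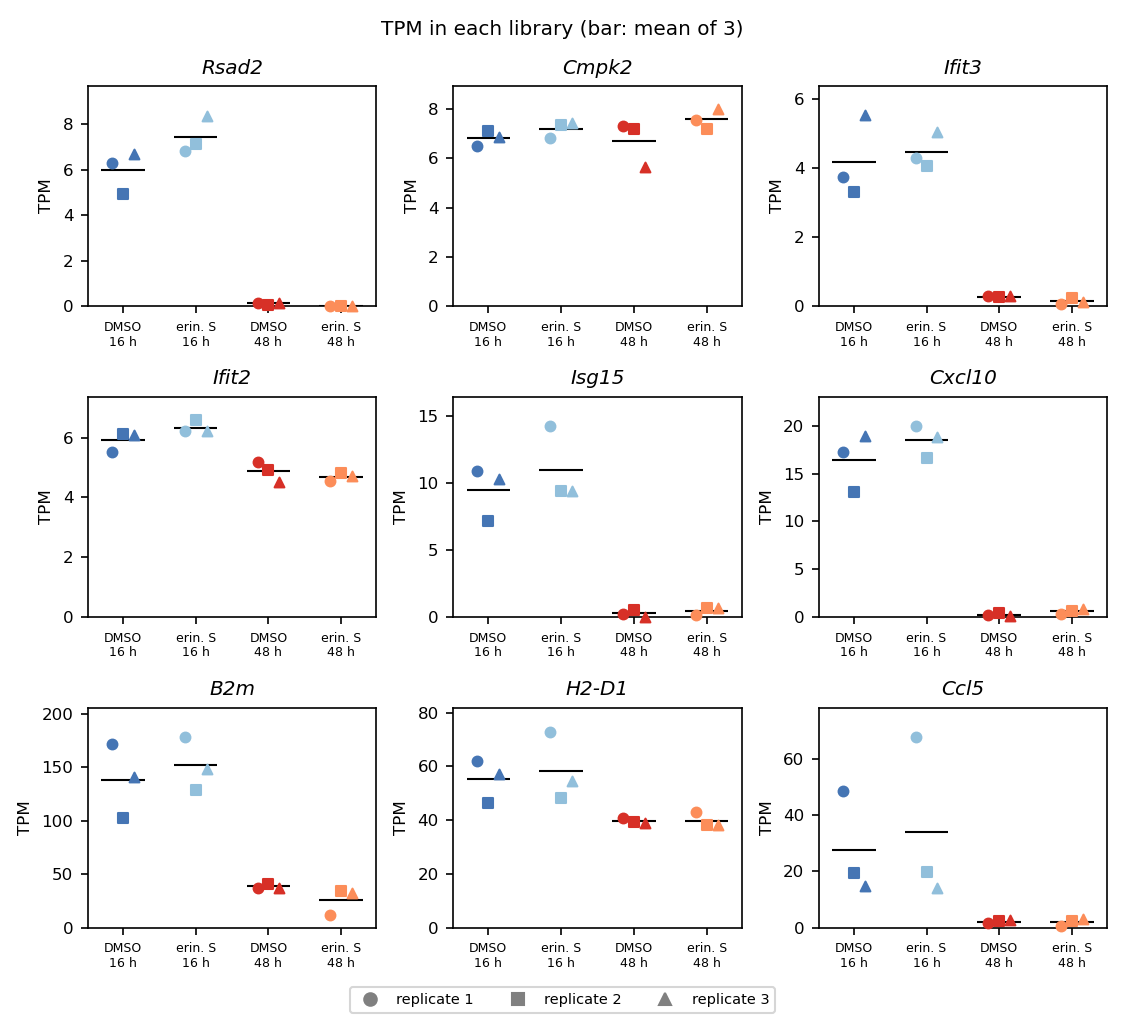
TPM of 9 members in each library, with the group mean as a bar; the marker shape gives the replicate number and each vertical axis starts at 0. Rsad2, Ifit3, Isg15 and Cxcl10 drop to near 0 at 48 h, Cmpk2 and Ifit2 do not, and Ccl5 replicate 1 lies above the other libraries at 16 h.

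Of the 8 members for ISG15, ubiquitin and ADP-ribose 6 passed the filter, and these 6 fell in both treatments, under the same limit and beside the same 16.6% and 15.5% of all genes. Isg15, the ubiquitin-like modifier that is attached to proteins during the response, stood at 10.9, 7.15 and 10.3 TPM in DMSO and 14.3, 9.39 and 9.42 TPM in erinacine S at 16 h. At 48 h it stood at 0.223, 0.545 and 0 TPM in DMSO and at 0.122, 0.631 and 0.641 TPM in erinacine S. The differences were -3.06 ± 0.23 and -3.03 ± 0.23 (adjusted p = 9.77e-06 and 9.67e-06), with no overlap between times. Usp18, the protease that removes ISG15 and restrains the interferon receptor, fell by 1.54 ± 0.15 in DMSO and 1.88 ± 0.15 in erinacine S. Herc6, a ligase for ISG15 in the mouse, fell by 0.77 ± 0.17 and 0.81 ± 0.17. Parp9 and its partner Dtx3l, a ubiquitin ligase, fell by 1.23 ± 0.14 and 0.92 ± 0.17 in DMSO, and the 2 genes overlap on opposite strands, so reads of one could be counted for the other. Trim25, a ubiquitin ligase that acts on RIG-I, fell by 0.66 ± 0.20 in DMSO (adjusted p = 0.0278), a call lost without any of 5 of the 6 DMSO libraries, all but 48 h replicate 2 (adjusted p = 0.0550 to 0.111).

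The genes of antigen presentation had the highest levels and a graded decline. B2m, the light chain of class I major histocompatibility complexes, stood at 172, 103 and 141 TPM in DMSO at 16 h and at 37.1, 41.1 and 37.6 TPM at 48 h. In erinacine S it stood at 179, 129 and 149 TPM at 16 h and at 12.3, 34.0 and 32.6 TPM at 48 h. Times did not overlap, and B2m fell by 1.79 ± 0.31 (adjusted p = 0.00127) and by 2.60 ± 0.31 (adjusted p = 0.00016). Of the heavy chains, H2-K1 fell from 40.8 ± 9.91 to 12.6 ± 0.710 TPM in DMSO (SD), a difference of -1.59 ± 0.16 (adjusted p = 4.64e-05). H2-D1 fell less, from 55.2 ± 8.02 to 39.6 ± 1.12 TPM, and its call in DMSO (-0.46 ± 0.14, adjusted p = 0.0242) is lost without any of 5 of the 6 DMSO libraries, all but 16 h replicate 2 (adjusted p = 0.0542 to 0.0893). The H2-K1 and H2-D1 sequences are similar, so reads could be split between them. The immunoproteasome subunits Psmb8 and Psmb9 fell by 1.44 ± 0.22 and 1.11 ± 0.20 in DMSO. Tap1, a subunit of the peptide transporter, stood at -0.37 ± 0.18 in DMSO and -0.48 ± 0.18 in erinacine S and did not pass (adjusted p = 0.120 and 0.0567). It overlaps Psmb9 on the opposite strand, so reads of one could be counted for the other.

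Markers of other cells were measured beside this decline. Of the 16 microglia markers 9 were tested, and 1 fell in DMSO (Ctss, -0.98 ± 0.31, adjusted p = 0.0311) and none rose. Of all genes tested 16.6% fell and 16.1% rose there. The DMSO differences were positive for 5 of the 9 and negative for 4. The complement genes C1qa and C1qc, which mark microglia, stood at 0.22 ± 0.29 and 0.21 ± 0.24 in DMSO. C1qa read 4.64, 3.16 and 3.66 TPM in DMSO at 16 h and 5.51, 4.50 and 3.85 TPM at 48 h, with overlap. In erinacine S 4 of the 9 fell, beside 15.5% of all genes, with C1qa at -1.59 ± 0.29 and Ctss at -2.32 ± 0.31 (adjusted p = 0.00198 and 0.000362). The part of the microglia markers in the members' decline there was not tested. The 8 markers of T, B or NK cells summed to 1.90 to 5.37 TPM in DMSO and 2.86 to 5.21 TPM in erinacine S at 16 h, and to 0.491 to 1.16 and 0.267 to 1.03 TPM at 48 h. Most of this sum was Ptprc, which microglia also express. Endothelial markers summed to 2.88 to 5.16 TPM at 16 h and 1.496 to 2.17 TPM at 48 h over both treatments. Markers of 2 glial lineages moved upward in DMSO. Of 7 tested oligodendrocyte lineage markers 6 rose in DMSO and 3 in erinacine S, beside 16.1% and 15.1% of all genes. Their 8-gene sum was 59.6 to 108 TPM in DMSO and 63.2 to 96.2 TPM in erinacine S at 16 h, and 201 to 233 and 66.5 to 187 TPM at 48 h. Of 6 tested astrocyte markers 1 rose in DMSO and none in erinacine S, beside the same shares, with positive differences for 6 and 5 of them. Their sums were 54.4 to 72.5 and 56.4 to 72.2 TPM at 16 h and 109 to 125 and 49.3 to 132 TPM at 48 h. In erinacine S at 48 h, replicate 1 held the low sums of both lineages. The other replicates stood at 174 and 187 TPM for the oligodendrocyte lineage and at 130 and 132 TPM for astrocytes. None of the tested oligodendrocyte lineage or astrocyte markers passed the test as lower over time, in either treatment. The difference was negative for 1 of the 7 oligodendrocyte lineage markers in each treatment and for 1 of the 6 astrocyte markers in erinacine S. The part of all these lists in the members' decline was not tested.

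**Figure D4:**
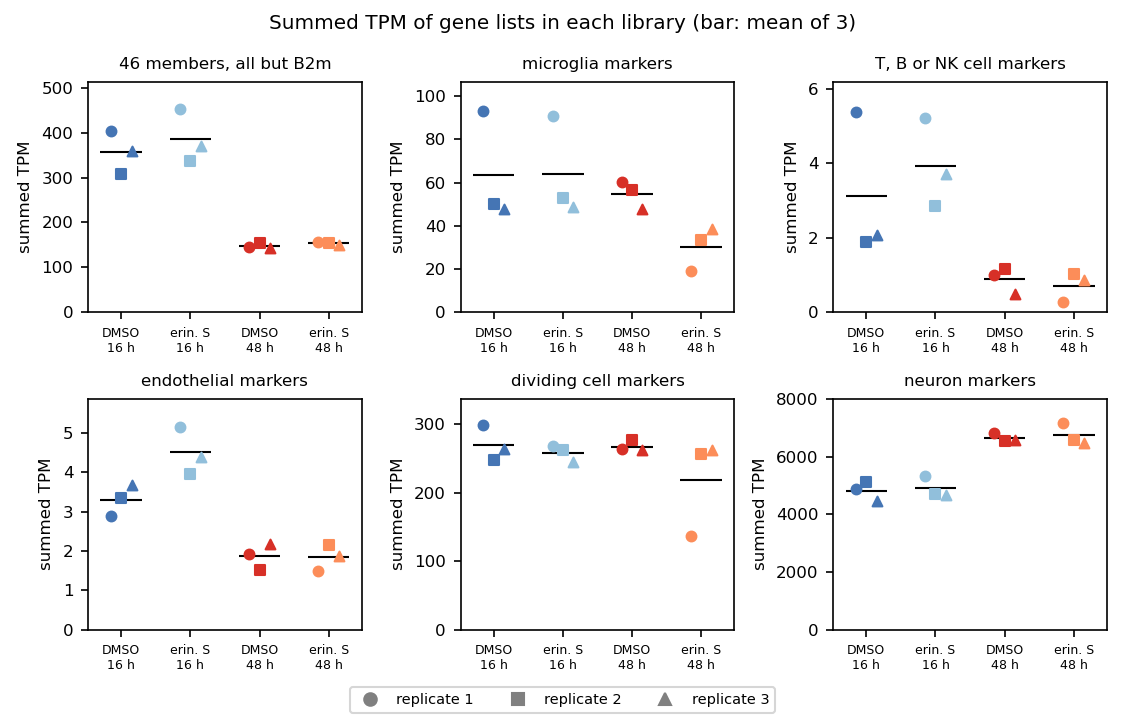
Summed TPM of 46 members (all but B2m, which would dominate the sum) and of 5 marker lists in each library, with group means as bars and marker shapes for replicate numbers. The members' sum drops in both treatments, the microglia sum of DMSO at 48 h lies within the range of DMSO at 16 h, and that of erinacine S at 48 h lies below all other groups.

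The other genes of the pathway were taken from 3 lists. None of 21 interferon genes reached a mean of 1 TPM, 14 were listed at 0 in all 12 libraries, and their sum did not pass 0.558 TPM in any library. Of 14 tested receptor and JAK-STAT genes, 2 fell and 4 rose in DMSO, and 1 fell and 3 rose in erinacine S. Of all genes tested 16.6% fell and 16.1% rose in DMSO, and 15.5% fell and 15.1% rose in erinacine S. Ifnar2, a chain of the type I interferon receptor, fell by 0.30 ± 0.09 in DMSO (adjusted p = 0.0292). The kinase Jak1 (0.33 ± 0.08) and the interferon gamma receptor chain Ifngr2 (0.29 ± 0.07) rose there. Of 11 tested genes of nucleic acid sensing upstream of interferon, 5 fell in DMSO and 4 in erinacine S, and none rose, beside the same shares of all genes, with the kinase Tbk1 at -0.34 ± 0.06 and the factor Irf3 at -0.47 ± 0.15 in DMSO.

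Erinacine S against DMSO was the study's treatment comparison, and here no member passed the test. At 16 h, 0 of 40 members and 0% of the 15623 genes were called by limma, and 0 of 40 had an unadjusted p under 0.05, against 1.29% of all genes. The differences were positive for 35 of 40 members, beside 53.7% of all genes, with a median of 0.12 beside 0.01. Without DMSO 16 h replicate 2, the lowest of its group over the members, this median is 0.04, and it is 0.0452 with library weights and 0.0638 with a pseudocount of 5. Every erinacine S library lay above every DMSO library for 4 of 40 members, Rsad2, Ifit2, Herc6 and Parp9, against 2.62% of all genes, and none lay below, against 1.56%. Mx2 and Tap2, under the filter, showed the same. The same-numbered libraries of 16 h vary together, so they were also set side by side: erinacine S was above DMSO in all 3 pairs for 17 of 40 members, against 11.3% of all genes, and below in all 3 for 1, Irf9, against 7.70%. With the pairs as a block in limma, 0 of 40 members were called. The count of all genes called in that fit is not given here, so this 0 cannot be called particular to the members.

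Rsad2 had the smallest p at 16 h: its DMSO libraries reached at most 6.70 TPM and its erinacine S libraries began at 6.81 TPM (0.28 ± 0.13, adjusted p = 1.00, limma). Irf9 was next, at -0.18 ± 0.09, with the DMSO and erinacine S libraries given above overlapping as groups. Parp9 stood at 2.74, 2.34 and 2.66 TPM in DMSO and at 3.26, 3.04 and 3.42 TPM in erinacine S (0.24 ± 0.14). Oas1a, an oligoadenylate synthetase, stood at 2.68, 1.84 and 2.46 TPM and at 3.63, 2.09 and 3.17 TPM (0.24 ± 0.18). For Oas1a the groups overlap, and its reads could be shared with near-identical Oas1 copies. Psmb9 stood at 1.78, 1.49 and 2.08 TPM and at 1.86, 1.90 and 3.33 TPM (0.25 ± 0.20). Samd9l, a restriction factor, stood at 2.46, 2.03 and 3.01 TPM and at 2.95, 2.501 and 3.36 TPM (0.17 ± 0.14). The groups overlap for both genes, while within the pairs Oas1a, Psmb9 and Samd9l were higher in erinacine S in all 3.

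At 48 h the direction of most differences was the opposite, again with 0 of 40 members called, against 0.134% of all genes. Of the 40, only 16 in DMSO and 14 in erinacine S had a mean of at least 1 TPM at 48 h. Most of these differences were thus taken at low levels. Some were very small in either direction, such as Ifit1 (-0.003) and Lgals3bp (0.004). An unadjusted p under 0.05 was reached by 2 of 40, against 8.96% of all genes. The differences were negative for 26 of 40 members, beside 47.5% of all genes, with a median of -0.10 beside 0.01. The median is -0.05 without erinacine S 48 h replicate 1, the library that stands apart, -0.0288 with library weights, -0.0294 with a pseudocount of 5, and 0.00495, of the other sign, over the 12 members with a mean of at least 5 TPM. All erinacine S libraries lay below all DMSO libraries for 6 of 40 members, Rsad2, Oas1a, Ifit3, Gbp3, Parp9 and B2m, against 8.74% of all genes, and above for 1, Stat2, against 10.5%. Erinacine S 48 h replicate 1 alone held the lowest level of the 6 libraries of 48 h for 22 of the 47 members. The share of all genes that were lowest in this library was not counted, so the 22 cannot be called particular to the members. The same library held the highest level of Stat2, Tap1 and H2-D1.

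Stat2 had the smallest p at 48 h, at 0.33 ± 0.12 (adjusted p = 0.445, limma), or 0.22 without erinacine S 48 h replicate 1. Gbp3, a guanylate-binding GTPase that attacks the membranes around intracellular pathogens, stood at 1.11, 1.44 and 0.932 TPM in DMSO and at 0, 0.844 and 0.654 TPM in erinacine S. At 16 h it had stood at 3.61, 2.81 and 4.04 TPM in DMSO and at 4.44, 3.61 and 4.56 TPM in erinacine S. Its 48 h difference was -0.57 ± 0.21 (adjusted p = 0.456, limma), or -0.30 without replicate 1. B2m stood at -0.66 ± 0.31, or -0.21 without replicate 1, so that a single library set most of the B2m value. Bst2 went from -0.47 ± 0.30 to -0.14 and Ifi27 from -0.38 ± 0.21 to -0.23 in the same way. Cxcl10 moved the other way, at 0.35 ± 0.17, with its groups overlapping. The summed microglia markers were below all DMSO libraries in all 3 erinacine S libraries of 48 h, with C1qc at -1.48 ± 0.24 (adjusted p = 0.0413), and their part in the members' differences was not tested.

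**Figure D5:**
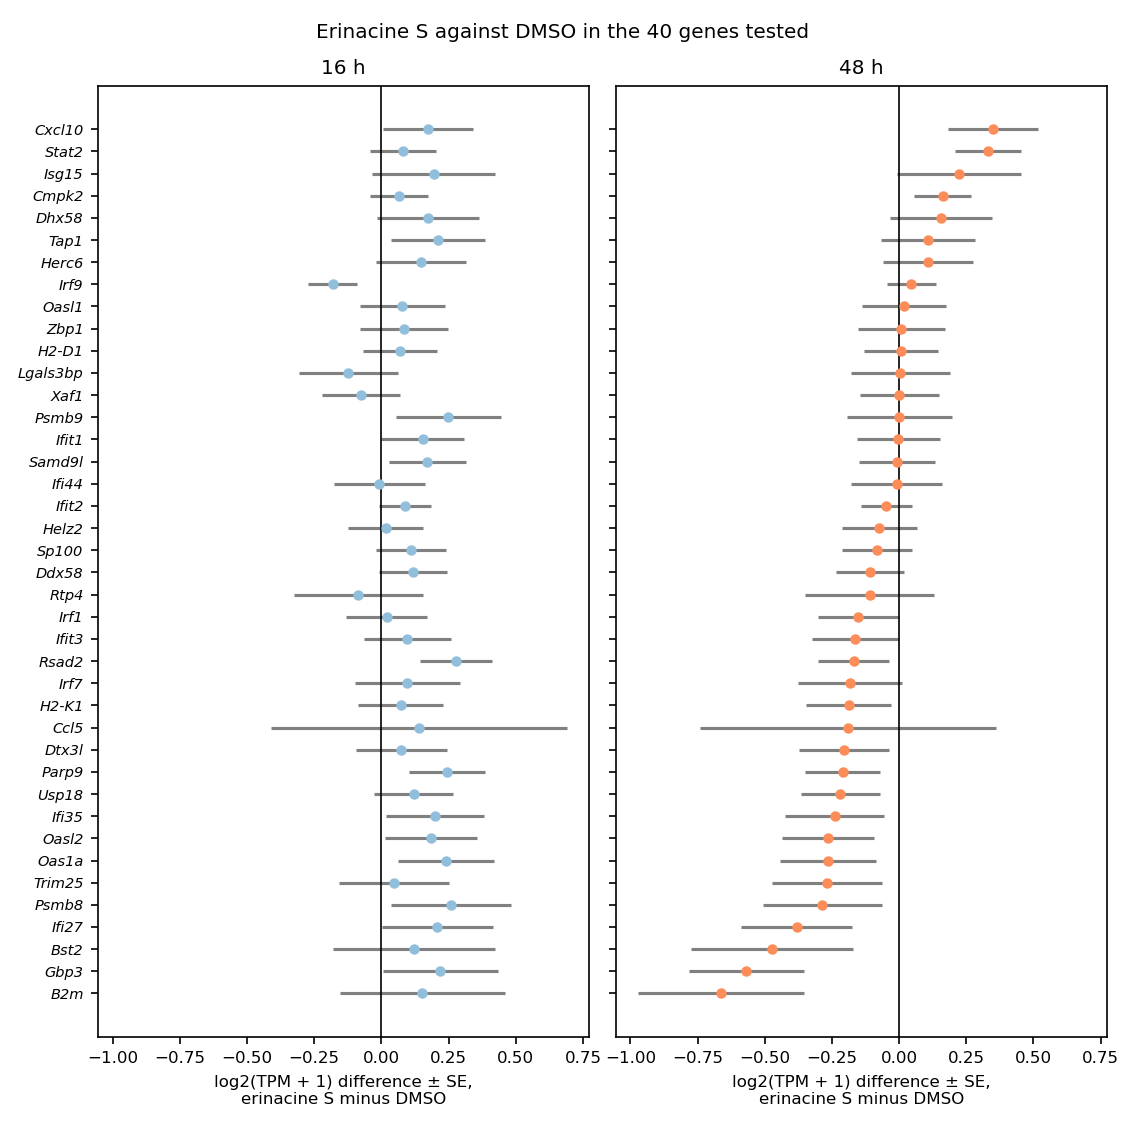
Difference between erinacine S and DMSO in log2(TPM + 1), with its SE, for the 40 members that passed the filter, at 16 h (left) and 48 h (right), in the same row order on a shared scale. At 16 h 35 of 40 points lie to the right of 0 and at 48 h 26 of 40 lie to the left, and no member passed the test at either time.

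The change in the erinacine S effect between the times was tested directly. No member passed (0 of 40, against 0% of all genes), and 3 of 40 had an unadjusted p under 0.05, against 2.77% of all genes: Gbp3 (-0.79 ± 0.30), Rsad2 (-0.45 ± 0.19) and Parp9 (-0.46 ± 0.20), all with an adjusted p of 1.00 in limma. Rsad2 and Parp9 were the 2 members whose erinacine S libraries lay above every DMSO library at 16 h and below every one at 48 h. The share of all genes with this pattern was not counted. At 48 h both genes stood under 1 TPM in every library. Rsad2 read 0.157, 0.0696 and 0.149 TPM in DMSO and 0 in all erinacine S libraries. Oas1a, among the next smallest p, read 0.442, 0.169 and 0.186 TPM in DMSO and 0, 0.152 and 0 TPM in erinacine S at 48 h. There Parp9 read 0.515, 0.539 and 0.516 TPM in DMSO and 0.0827, 0.438 and 0.466 TPM in erinacine S. Without erinacine S 48 h replicate 1 the value is -0.52 for Gbp3, -0.45 for Rsad2 and -0.31 for Parp9. The same contrast compares the decline over time between treatments, so a steeper decline under erinacine S was not called for any member.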

How the data were processed

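RNA of 12 cultures was sequenced with a kit that keeps the strand, per the labels' protocols. Build GRCm38.p5 is named by the submitters' processing notes, which list StringTie 2.1.3, HISAT2, SAMtools, Trimmomatic 0.36, bcl2fastq 2.20 and FastQC. For annotation release and strand setting, the sources used here say nothing. The authors deposited TPM per gene for 51912 genes, with 0.0001 in place of 0, which was read as 0; TPM keep no read depth, so counting precision is unknown and no interval for it is given. Groups came from the sample titles.

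The 47 members and the other gene lists were chosen with earlier results of these data known. Genes with a mean of at least 1 TPM over 12 libraries (15623) were tested as log2(TPM + 1) in 1 fit with 4 group means (limma 3.58.1 in R 4.3.3, eBayes with a trend, Benjamini-Hochberg over all genes, threshold 0.05). The script was tested on simulated data. The comparisons were 48 h against 16 h in each treatment, erinacine S against DMSO at each time, and the difference of the last 2. All members could be named. Values in every library compared are given for the 6 smallest p-values in each comparison and the most abundant member of each role, and for neighbours that differed, chosen after their values were seen. Alternatives changed the pseudocount, filter, library weights, libraries fitted and replicate block. Replicate numbers come from the titles. Deviations of same-numbered libraries correlated at 0.48, 0.18 and 0.51 at 16 h, where differently numbered ones reached at most 0.11. The numbers may thus pair the 16 h libraries, least clearly for replicate 2. At 48 h the values were -0.02, 0.11 and -0.19, and no pairing is seen. Differences, SE and p-values of members at 16 h come from the fit without pairs. Coordinates are those of the deposited table, the same in GENCODE M21 for 45 members. Reads of 18 members could include those of an overlapping gene. The values of 1 pathway gene are not reported here.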

Additional observations from a re-analysis of the deposited data

How the results depend on the processing

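Of the members called over time, 31 of 34 in DMSO and 34 of 35 in erinacine S were called in all those of the 20 alternatives that they entered. The exceptions were Trim25, Gbp3 (adjusted p = 0.0880 with a pseudocount of 0.1) and H2-D1 in DMSO and Ifit2 in erinacine S. The alternative with a mean of at least 5 TPM holds only 12 members, so the others were not tested in it. Most alternatives keep the filter of at least 1 TPM, which favours members that were high at 16 h. The size of the decline depends on the scale: the median over members was -2.27 in DMSO and -3.04 in erinacine S with a pseudocount of 0.1, -0.54 and -0.64 with a pseudocount of 5, and -1.23 and -1.55 with no filter, against -1.43 and -1.72. With a mean of at least 5 TPM only 12 members enter, of which 9 fell in each treatment. That fit called 4331 of all its genes in DMSO and 4040 in erinacine S, in either direction. The number of genes in that fit and the part that fell are not given here. The 9 of 12 therefore cannot be set against a share of all genes. The median change of the erinacine S effect between times was -0.0171 there, against -0.19. With library weights, 2 of 40 members were called at 48 h for the treatment, beside 1599 of the 15623 genes tested. The main fit called 21 genes there. The 2 members were Cxcl10 (0.42, adjusted p = 0.0247) and Stat2 (0.27, adjusted p = 0.0303), both higher in erinacine S. With these weights the median decline in erinacine S was -1.57 and the median change of the effect between times -0.0600. Direction turned for Oas1a at 16 h (-0.0295) and Bst2 at 48 h (0.0269) with library weights, for Stat2 over time in erinacine S without erinacine S 16 h replicate 3 (-0.0386) or without erinacine S 48 h replicate 1 (-0.0705), and for Cmpk2 in DMSO without DMSO 48 h replicate 3 (0.0755); none of these passed the test. Over all libraries left out, Stat2 in erinacine S ranged from -0.0705 to 0.151 and Cmpk2 in DMSO from -0.0877 to 0.0755. The causes were not tested.

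Leaving out each library in turn gave 30 to 37 members called over time in DMSO and 33 to 38 in erinacine S, with medians of -1.51 to -1.35 and -1.79 to -1.59. It gave 0 called in the treatment comparisons and their difference, with medians of 0.04 to 0.19 at 16 h, -0.13 to -0.05 at 48 h and -0.26 to -0.13 for the difference. The replicate block within each time left the count of called members at 0 in these 3 comparisons. It was not run for the change over time, which lies between its blocks. A block over both times called 34 members in DMSO and 37 in erinacine S, the added ones being Irf9 and Tap1. The counts of all genes called in the fits of this paragraph are not given here. Whether these shifts are particular to the members therefore cannot be read from them. Unknown depth limits what can be said of members near 0 at 48 h.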
